A study of Danio rerio with 19 samples.

Results

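Bihormonal cells of the regenerating zebrafish islet were compared with β-cells of control islets across all genes, with the weight on genes and functions other than the hormones and the classical islet factors. The members were taken by their labels: all 6 libraries titled as bihormonal cells and all 7 titled as control β-cells, 13 of the 19 libraries of the series. All fish carried Tg(sst1.1:eGFP), in which the *sst1.1* promoter drives GFP, and Tg(ins:NTR*-P2A-mCherry), in which the *ins* promoter drives nitroreductase and mCherry. Bihormonal cells were GFP+ mCherry+ cells sorted 20 days post treatment (dpt) from fish kept for 18 hr in nifurpirinol (NFP) at 2.5 µM, which nitroreductase turns into a toxin, so that the original β-cells were destroyed. The β-cells were mCherry+ cells of fish kept in 0.16% DMSO, and their titles carry no day. Each library pooled cells from the main islets of 2 to 4 fish aged 6 to 10 months, males and females, so it is a mean over fish and cells. Cell type and ablation changed together between these groups and cannot be told apart. Where the levels in GFPhigh δ-cells are given, these are 3 libraries of strongly GFP+ cells from the DMSO fish.

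In the islet, β-cells couple the breakdown of glucose in glycolysis and mitochondria to calcium entry and the release of insulin granules. δ-cells release somatostatin, which restrains their neighbours through inhibitory receptors, and they respond to many neural, gut and paracrine ligands. Both cell types make dense-core granules filled with peptide hormones, and both share much of the machinery that folds, cuts and ships them. A cell that makes both hormones could resemble either type in each of these layers, and the genes below are ordered by layer: intermediary metabolism, the secretory route, receptors and their signals, ion transport, growth and patterning ligands, the cell surface and matrix, stress and immune genes, and regulators of transcription and RNA.

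Counts per library were 6028949 to 18077658 in bihormonal cells and 8373496 to 16819976 in β-cells. Values below are normalized counts, that is counts scaled by library size and composition but not by gene length, so levels are compared between groups and never between genes. The hormone genes took different shares of the libraries: *sst1.1* held 29.5 to 58.5% of all counts in bihormonal cells and 0.0289 to 0.627% in β-cells, and *ins* held 1.41 to 4.95% and 24.3 to 32.3%. Without a scaling for composition, the median log2 fold change over all genes moved from 0 to -0.64 and the calls from 1086 higher and 847 lower to 707 and 2896, so all changes here are relative to the typical gene. The markers followed the labels: *ins* and *mnx1* fell and *sst1.1* and *hhex* rose in bihormonal cells. Markers of *sst2* δ-cells summed to 22870 to 142200 in bihormonal libraries and 1032 to 9849 in β-cell libraries, where 3 of the 4 measured markers were called higher and *cdx4* stayed at 3.84 or below in all bihormonal libraries. Acinar markers summed to 148.6 to 1216 and 80.9 to 865, with 2 of 15 higher, and endothelial markers to 3.46 to 16.7 and 8.85 to 15.07. Duct markers summed to 624.6 to 3695 in bihormonal and 3807 to 9608 in β-cell libraries, with 3 of 6 tested and 1 called lower. Most of these sums came from *krt18a.1* (means 591.6 and 3173) and *epcam* (1280 and 1918). *cftr*, too low for the test, went the other way, with means of 3.74 and 0. Glia and nerve markers summed to 2153 to 7670 and 559.7 to 1121, with 2 of 6 tested. Of these *plp1b* was called higher (means 3709 and 286.5), while *mbpb* was lower without a call (360.2 and 525). The α-cell marker *gcga* had 4039 to 64990 and 6982 to 13790 and was not called. Single libraries stood out in the markers. Bihormonal replicate 6 had the lowest share of *sst1.1* (29.5%) and the most *gcga* (64990), *sst2* (38830) and *mnx1* (30.05), but the least *sst1.2* (11360). Of the β-cell libraries, replicate 6 held 0.627% of *sst1.1* and the others 0.0289 to 0.111%. Both libraries recur below where leaving out 1 library moved a fold. The part of these cell types in the differences below was not tested. In bulk libraries fewer cells of a type and less RNA per cell cannot be told apart.

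A gene was called when its fold exceeded 2 and its p from the edgeR quasi-likelihood model, adjusted by Benjamini and Hochberg's method, was under 0.05. Of 14693 genes tested, 1086 (7.39%) were higher in bihormonal cells and 847 (5.76%) were lower, 13.2% in all. The change was over 16-fold for 266 of the higher and 112 of the lower genes. The 6 bihormonal libraries all lay above the 7 β-cell libraries for 678 genes (4.61%) and all below for 655 (4.46%). At the other end, 1572 genes had a 95% interval of the log2 fold change within -0.5 and 0.5. By the gaps in their deposited numbers the libraries form 6 runs, of which 2 hold both cell types. One holds bihormonal replicates 4 and 5 and β-cell replicate 1, the other bihormonal replicate 6 and β-cell replicates 6 and 7. Within both of these runs 1840 of the 1933 called genes kept the direction of their call. Deposited tables came in 2 layouts, and 1909 of the called genes kept their direction within both. The calls were made from these same libraries, so both counts describe the calls and are no independent check of them.

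**Figure D1:**
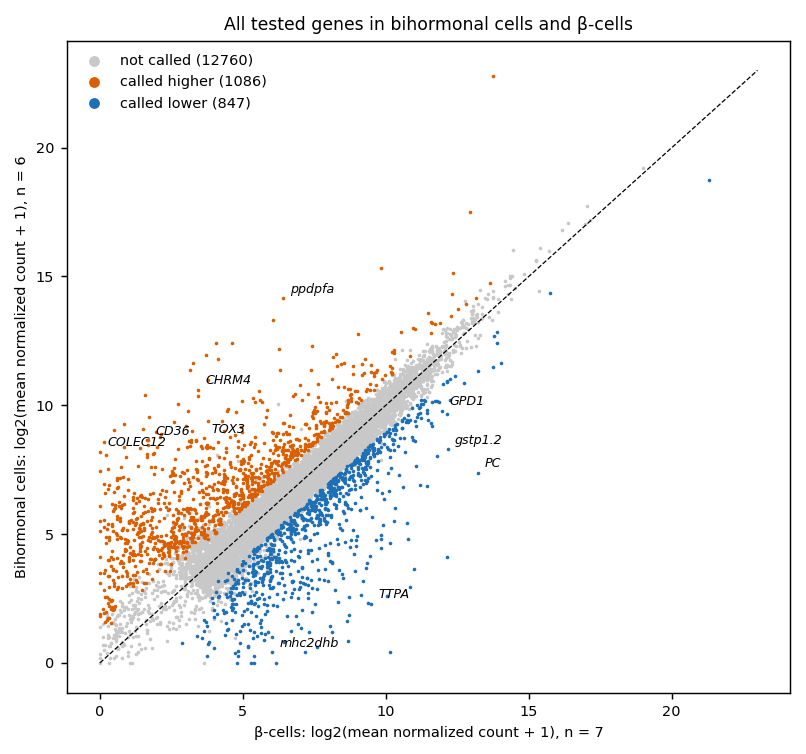
Mean normalized count of each of the 14693 tested genes in 7 β-cell libraries (x axis, log2 of the mean + 1) against 6 bihormonal libraries (y axis, same scale). Grey points are genes that were not called, orange points the 1086 called higher in bihormonal cells and blue points the 847 called lower; the dashed line marks equal levels, and the labelled genes are described in the text.

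The calls were spread unevenly over 43 lists of genes grouped by function. Among receptors for islet hormones and transmitters, 33 of 58 tested members were called (56.9%), and among neuropeptides 10 of 14 (71.4%). Extracellular matrix genes and axon guidance genes followed with 27 of 59 and 38 of 83 called, 45.8% each. At the opposite end stood the machinery that every secretory cell runs. Of 30 genes for entry into the endoplasmic reticulum (ER) 0 were called by edgeR and 0 by DESeq2, with 2 at an unadjusted p under 0.05 and 1 at an adjusted p under 0.05 but a smaller fold. Of 62 autophagy genes 1 was called (1.61%), of 44 genes of the coats between ER and Golgi 1 (2.27%), of 38 ER chaperone and unfolded protein response genes 1 (2.63%) and of 60 ribosome biogenesis genes 2 (3.33%). These shares are read against the 13.2% of all tested genes. Few calls leave room for shifts under the fold threshold. Positive log2 fold changes were found for 28 of 38 chaperone, 23 of 30 ER entry, 35 of 44 coat and 40 of 60 ribosome biogenesis genes. Autophagy genes had 19 of 62, and all tested genes 7353 of 14693. The medians were 0.28, 0.24, 0.20, 0.16 and -0.12 in that order of lists.

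**Figure D2:**
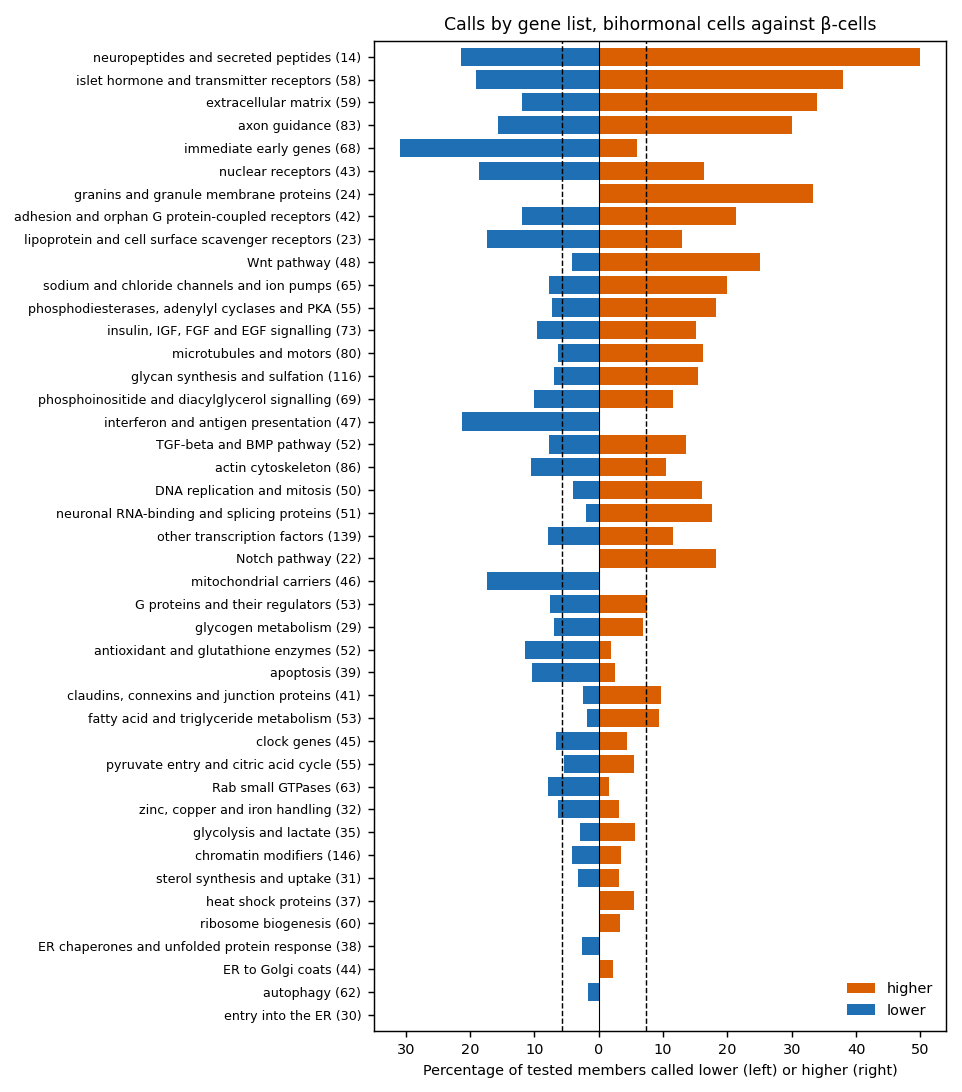
Percentage of the tested members of each of 43 gene lists called higher (orange, to the right) or lower (blue, to the left) in bihormonal cells than in β-cells, ordered by the total; the number of tested members stands after each name. Dashed lines mark the share over all 14693 tested genes, 7.39% higher and 5.76% lower; receptors and neuropeptides lie far beyond both lines, and ER, coat and autophagy lists lie inside them.

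Entry of pyruvate into mitochondrial metabolism held a few very large differences in an otherwise level list. *PC* (ENSDARG00000051939), pyruvate carboxylase, which turns pyruvate into oxaloacetate and is abundant in β-cells, ranged over 7441–11440 in β-cell libraries (median 9670) and 46.2–391 in bihormonal libraries (median 155). The groups lay far apart, at a log2 fold change of -5.83, SE 0.59, adjusted p = 2.33e-07, and GFPhigh δ-cells had 0–97.9. The second gene of this symbol (ENSDARG00000098766) was not called, at a log2 fold change of -0.13. *PDK3* (ENSDARG00000099791), a kinase that switches off pyruvate dehydrogenase, had 40.8–94.4 in β-cells (median 57.0) and 0–2.31 in bihormonal cells (median 1.01), a log2 fold change of -5.68, SE 0.58, adjusted p = 2.94e-07. In the opposite direction *ACLY* (ENSDARG00000099079), which cleaves citrate to acetyl-CoA in the cytosol, lay at 1741–3019 in bihormonal cells and 598–1068 in β-cells without overlap (log2 fold change of 1.60, SE 0.19, adjusted p = 2.53e-06). *SUCLA2*, a subunit of succinyl-CoA synthetase, had 1005–1989 against 624–964 (log2 fold change of 1.02, SE 0.16, adjusted p = 8.05e-05). Of 55 tested genes of this list 3 rose and 3 fell (10.9% called, median log2 fold change 0.12), the other pair being *pck2*, mitochondrial phosphoenolpyruvate carboxykinase, which rose, and *ME1*, cytosolic malic enzyme, which fell. *MDH2*, malate dehydrogenase, had 2352–5289 and 2177–4029 and was not called. *SUCLA2* sat at the fold threshold and was not called when any 1 of bihormonal replicates 3 and 5 or β-cell replicates 2, 4 and 6 was left out (log2 fold changes of 0.93 to 0.99), and *ME1* was not called with the library run in the model (-1.05, adjusted p = 0.0515).

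Mitochondrial carriers fell in 8 of 46 cases (17.4%), and 0 were called higher by edgeR, with 4 higher and 12 lower at an unadjusted p under 0.05. *SLC25A25* exists as a pair of genes under this symbol, both encoding ATP-Mg/phosphate carriers that set the adenine nucleotide content of mitochondria. The copy ENSDARG00000035468 had 8.88–58.4 in bihormonal cells and 682–1108 in β-cells (log2 fold change of -5.35, SE 0.46, adjusted p = 2.09e-08), and the copy ENSDARG00000010572 68.8–211 and 237–1014 (log2 fold change of -1.81, SE 0.32, adjusted p = 0.00021). Another gene of this family, *slc25a24*, had 53.8–143 and 249–499.6 (log2 fold change of -1.64, SE 0.23, adjusted p = 1.72e-05). All bihormonal libraries lay below all β-cell libraries for each of the 3 genes, and without bihormonal replicate 6, the highest of its group, the copy ENSDARG00000035468 was at a log2 fold change of -6.03. The ADP/ATP carrier *SLC25A5* had 10760–17480 in bihormonal cells and 7452–9917 in β-cells, with a log2 fold change of 0.79, SE 0.20, adjusted p = 0.0061 that stayed under the fold threshold.

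Other metabolic genes that fell far were picked for their large differences, not from a list. *GPD1* (ENSDARG00000043180), cytosolic glycerol-3-phosphate dehydrogenase, which makes the glycerol backbone of lipids and shuttles electrons, ranged over 499–1140 in bihormonal cells and 3158–4845 in β-cells (log2 fold change of -2.18, SE 0.18, adjusted p = 1.59e-08). *slc7a2*, a transporter of arginine and lysine, had 78.9–564 and 2354–4717 (log2 fold change of -3.76, SE 0.48, adjusted p = 5.26e-06) and *SLC43A2* (ENSDARG00000061120), a transporter of large neutral amino acids, 872–1934 and 3885–5672 (log2 fold change of -2.05, SE 0.20, adjusted p = 1.82e-07). *ETNPPL*, which breaks down phosphoethanolamine, fell from 1339–2287 to 6.42–94.3 (log2 fold change of -5.96, SE 0.53, adjusted p = 3.53e-08). None of these 4 genes had a bihormonal library within the β-cell range, and GFPhigh δ-cells had 769.9–1165 for *GPD1*, 3.54–75.8 for *slc7a2*, 785–1277 for *SLC43A2* and 0–8.42 for *ETNPPL*. Leaving out bihormonal replicate 6 moved *ETNPPL* to -7.09 on the log2 scale.

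Glycolysis itself was nearly level, with 3 of 35 genes called (8.57%). *PFKP* (ENSDARG00000028000), a phosphofructokinase, had 321–493 and 143–257 (log2 fold change of 1.14, SE 0.26, adjusted p = 0.00258, but not called with the library run in the model at 1.06 and adjusted p = 0.117), and *PFKFB2*, which makes the allosteric activator of phosphofructokinase, 137–264 and 308–486 (log2 fold change of -1.09, SE 0.18, adjusted p = 9.18e-05). *GAPDHS* was at 15680–41240 and 13790–29030 and was not called. In the glycogen list 2 of 29 genes rose and 2 fell (13.8%, near the 13.2% of all tested genes). *PPP1R3B*, which brings a phosphatase to glycogen, had 323–992 in bihormonal cells and 0–3.55 in β-cells without overlap (log2 fold change of 9.36, SE 0.63, adjusted p = 9.73e-10, and 10.20 without β-cell replicate 6). *PYGM* (ENSDARG00000013317), a glycogen phosphorylase, was lower at 28.2–58.9 against 172–395 (log2 fold change of -2.47, SE 0.26, adjusted p = 3.82e-07), and *gsk3bb*, a copy of the kinase that inhibits glycogen synthase, was higher at 65.3–384 against 36.6–110.5 (log2 fold change of 1.80, SE 0.33, adjusted p = 0.0004), while the other copy *GSK3B* had 745–1314 and 840.1–1375.

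In fatty acid and triglyceride metabolism a few genes rose far. *CD36*, a membrane receptor that takes up long-chain fatty acids, was at 204–776 in bihormonal libraries (median 375) and 0–8.21 in β-cells (median 1.36), a log2 fold change of 7.26, SE 0.51, adjusted p = 1.80e-09. *DGAT2* and *DGAT1* (ENSDARG00000103503), both of which add the last fatty acid to a triglyceride, had 85.2–259 and 65.0–155 in bihormonal cells and 0–25.9 and 6.78–35.4 in β-cells, log2 fold changes of 3.73 (adjusted p = 1.47e-05) and 2.33 (adjusted p = 3.72e-05). *mgll*, monoacylglycerol lipase, rose from 0.866–10.8 to 53.3–133 (log2 fold change of 3.71, SE 0.38, adjusted p = 2.89e-07). The groups were separate for all 4 genes, and leaving out β-cell replicate 7 moved *CD36* to 8.15 on the log2 scale. Over the list, 5 of 53 genes rose and 1 fell (11.3% called) and the median log2 fold change was -0.16, so the list did not rise as a whole. *ABCG1*, which exports cholesterol, was higher at 12.8–139 against 0.866–5.42 (log2 fold change of 4.39, SE 0.50, adjusted p = 1.14e-06), the only gene called higher of 31 in sterol synthesis and uptake.

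Large folds were also found for single genes that handle steroids or vitamin E. *SRD5A2* (ENSDARG00000039067), a steroid 5-alpha reductase, had 2954–4770 in bihormonal cells (median 3988) and 2.75–50.5 in β-cells (median 4.07), with a log2 fold change of 8.38, SE 0.55, adjusted p = 6.10e-10. The cytochrome P450 *cyp3a65* had 1805–8364 and 3.46–49.6 (log2 fold change of 7.87, SE 0.55, adjusted p = 1.37e-09). *PGR*, the progesterone receptor, had 558–2622 and 12.9–126 (log2 fold change of 5.01, SE 0.53, adjusted p = 4.04e-07). GFPhigh δ-cells had 2094–3858, 3175–7907 and 1602–2239 of these 3 RNAs. *TTPA*, the transfer protein for vitamin E, ran the other way, from 516–830.0 in β-cells to 0–10.8 in bihormonal cells (log2 fold change of -7.31, SE 0.55, adjusted p = 3.27e-09). The groups did not overlap for any of these 4 genes. Single libraries moved the largest folds, to 9.47 for *SRD5A2* without β-cell replicate 6 and to -7.99 for *TTPA* without bihormonal replicate 6.

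Of 52 antioxidant enzymes 6 were called lower and 1 higher (13.5% called, near the 13.2% of all tested genes). The list was level, with 24 of 52 log2 fold changes positive and a median of -0.05. *gstp1.2*, a pi-class glutathione transferase, had 259.9–474 in bihormonal cells and 2985–5671 in β-cells, with a log2 fold change of -3.89, SE 0.29, adjusted p = 3.67e-09. The theta-class gene *gstt1b* had 0–11.7 and 29.1–108 (log2 fold change of -3.98, SE 0.56, adjusted p = 1.56e-05, and -4.83 without bihormonal replicate 6). The sestrins, stress-induced proteins that restrain mTORC1, split: *SESN1* was lower (56.4–237 against 540.3–1760, log2 fold change of -2.65, SE 0.33, adjusted p = 3.14e-06) and *sesn2* higher (237–636 against 62.9–149, log2 fold change of 1.97, SE 0.30, adjusted p = 5.04e-05). *gpx3*, a glutathione peroxidase, had 11530–15210 against 7364–9656, under the fold threshold at a log2 fold change of 0.62, SE 0.14, adjusted p = 0.00341. Among genes for metals, the metallothionein-like *mtbl* was higher at 904–2774 against 301–624 (log2 fold change of 1.91, SE 0.27, adjusted p = 1.68e-05), and *fthl27*, a ferritin heavy chain-like gene, lower at 1537–2403 against 2736–6562 (log2 fold change of -1.21, SE 0.25, adjusted p = 0.00131). Neither was called with the library run in the model (adjusted p = 0.0927 and 0.111).

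The calls among genes of the peptide granule were for higher levels in bihormonal cells. Of 24 granins and granule membrane proteins, 8 rose (33.3%). *CPE*, the carboxypeptidase that trims prohormones, had 20160–34140 in bihormonal cells and 8582–15530 in β-cells (log2 fold change of 1.09, SE 0.22, adjusted p = 0.000803). *PAM*, which amidates peptide ends, had 11080–23010 and 5425–9226 (log2 fold change of 1.12, SE 0.20, adjusted p = 0.000267). *scg2b*, secretogranin 2, had 5860–13190 and 2866–3503 (log2 fold change of 1.65, SE 0.20, adjusted p = 2.70e-06), and *ptprna*, a phosphatase-like protein of the granule membrane, 5896–13440 and 2796–3780 (log2 fold change of 1.47, SE 0.22, adjusted p = 4.33e-05). For all 4 genes the lowest bihormonal library exceeded the highest β-cell library. *PAM* fell just under the fold threshold without bihormonal replicate 2 (0.97) and with a block for the table layout (0.99). *CPE* also did so with that block (0.95) and with a block for the replicate number (0.99). *SCG3* was not called, with 41230–63000 against 34160–45250. With library totals alone as the scaling, 2 members were called higher and 1 lower, so this list depends on the scaling. The ER chaperone *P4HB* (6598–23870 against 5328–13970), the translocon-associated *RPN2* (3908–6582 against 3053–5511) and the cargo receptor *TMED10* (3499–8984 against 3070–6323) were not called. *DDIT3*, a transcription factor of the ER stress response, was the 1 gene called in its list, at 424–1066 against 744–3386 (log2 fold change of -1.16, SE 0.38, adjusted p = 0.0343), and it was not called when any 1 of bihormonal replicates 3 to 5 or β-cell replicates 2 to 4 was left out (adjusted p = 0.053 to 0.0941).

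Secreted peptides other than the islet hormones rose in 7 of 14 tested genes and fell in 3. *pnoca*, a prepronociceptin gene, had 7837–40820 in bihormonal cells and 2206–9654 in β-cells with some overlap (log2 fold change of 2.00, SE 0.37, adjusted p = 0.000434). Its duplicate *pnocb* had 0–2.32 and 12.4–533 (adjusted p = 2.13e-05). With 2 counts in all bihormonal libraries together against 1746 in β-cells, the β-cell level was 538 times as high, with a 95% counting interval of 149 to 4440. Its fitted log2 fold change went from -8.55 to -9.20 without bihormonal replicate 2. *PYY*, peptide YY, a gut and islet peptide, had 5297–8618 and 174–1606 (log2 fold change of 3.76, SE 0.42, adjusted p = 8.38e-07), with β-cell replicate 7 the highest of its group and a log2 fold change of 4.41 without it. *NUCB2* (ENSDARG00000036291), the precursor of nesfatin, had 7762–15600 and 4175–6499 (log2 fold change of 1.21, SE 0.17, adjusted p = 1.46e-05), while the second gene of that symbol (ENSDARG00000036299) had 568–1103 and 648–1065 and was not called. *nmba*, a neuromedin B precursor, had 38.1–364 and 3.39–14.7 (log2 fold change of 4.20, SE 0.66, adjusted p = 6.97e-05), and *ANGPTL4*, a secreted inhibitor of lipoprotein lipase, 2958–8451 and 759.5–2957 (log2 fold change of 1.86, SE 0.32, adjusted p = 0.000183). With the library run in the model neither *ANGPTL4* (adjusted p = 0.0623) nor *NUCB2* (log2 fold change 0.93) was called. Of small GTPases that tether granules, *rab3db* rose from 21.4–56.3 to 197–654 (log2 fold change of 3.37, SE 0.30, adjusted p = 4.01e-08) and *RAB3C* fell from 1315–2523 to 183–341 (log2 fold change of -2.50, SE 0.19, adjusted p = 5.87e-09), and of 63 Rab genes 1 rose and 5 fell (9.52%).

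The receptor list, which includes accessory proteins, rose in 22 of 58 cases and fell in 11. *ADCYAP1R1* (ENSDARG00000105201), the receptor for the neuropeptide PACAP, which raises cAMP, was at 673–2122 in bihormonal cells (median 1324) and 2.44–20.4 in β-cells (median 10.1), a log2 fold change of 7.10, SE 0.39, adjusted p = 6.47e-11. *ptger4c*, a prostaglandin E2 receptor gene of the cAMP-raising type 4, had 107–694 and 0–1.12. That was 1424 counts over the bihormonal libraries against 1 over the β-cells, 2310 times as high (95% counting interval 414 to 91400, adjusted p = 8.42e-09), and that count lay in β-cell replicate 1. *CHRM4*, a muscarinic receptor that lowers cAMP, had 794–2278 and 0–42.5 (log2 fold change of 7.32, SE 0.61, adjusted p = 1.62e-08) and *adra2da*, an adrenoceptor that also lowers cAMP, 398–940.4 and 3.79–26.6 (log2 fold change of 5.71, SE 0.39, adjusted p = 1.21e-09). *drd4-rs*, a dopamine D4-type receptor, had 205–595 and 0–12.4 (log2 fold change of 7.55, SE 0.68, adjusted p = 3.91e-08), and *npy8br*, a neuropeptide Y receptor, 185.7–351 and 0.917–4.43 (log2 fold change of 6.58, SE 0.28, adjusted p = 1.74e-12). For each of these 6 genes all bihormonal libraries stood above all β-cell libraries. Without β-cell replicate 6, the highest of its group for both, *drd4-rs* and *CHRM4* were at 9.57 and 8.46 on the log2 scale.

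Single receptor and peptide genes of melanocortin and natriuretic peptide signalling were called higher. *MC4R*, the melanocortin 4 receptor, had 234–523 in bihormonal cells and 5.70–26.4 in β-cells (log2 fold change of 4.49, SE 0.29, adjusted p = 6.10e-10). *asip2b*, an agouti-type antagonist of melanocortin receptors, had 39.5–5457 (median 209) and 0–22.2 (median 3.39), with replicate 5 at the top (log2 fold change of 7.51, SE 1.25, adjusted p = 0.000125). *npr1a*, a receptor for natriuretic peptides that makes cGMP, had 848–1457 and 10.2–93.2 (log2 fold change of 5.30, SE 0.45, adjusted p = 1.88e-08). *ostn*, osteocrin, a peptide known from mammals to bind the clearance receptor of natriuretic peptides, had 11.1–1286 (median 117) and 0–9.17 (median 0), with replicate 1 at the top (log2 fold change of 7.34, SE 1.25, adjusted p = 0.000165). The bihormonal ranges of *MC4R* and *npr1a* were narrow and those of *asip2b* and *ostn* wide. Leaving out 1 library moved *asip2b* to 5.0 (bihormonal replicate 5) or 8.35 (β-cell replicate 6), *ostn* to 6.23 (bihormonal replicate 1) or 8.35 (β-cell replicate 3) and *npr1a* to 5.89 (β-cell replicate 1).

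The 11 members that fell were the receptors *ADRA2A*, *ADRA2B*, *ADRB1*, *CHRM5*, *NPY5R*, *VIPR2*, *calcrla*, *rxfp3* and *gcgra* and the accessory proteins *RAMP1* and *ramp2*. *gcgra*, a glucagon receptor, had 0–9.29 in bihormonal cells and 109–298 in β-cells (log2 fold change of -6.17, SE 0.57, adjusted p = 4.56e-07). Within families the direction differed: *adra2da* was higher and *ADRA2A*, *ADRA2B* and *ADRB1* lower, *CHRM4* was higher and *CHRM5* lower, and *npy8br* was higher and *NPY5R* lower. *OPRK1*, the kappa opioid receptor, was measured at 1743–6386 and 2931–6926 and was not called. With a level for each library run in the model, which leaves bihormonal replicates 1 to 3 out of the difference, 19 members were higher and 6 lower, and *ADRA2A*, *CHRM5*, *RAMP1*, *ramp2* and *VIPR2* were not called.

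**Figure D3:**
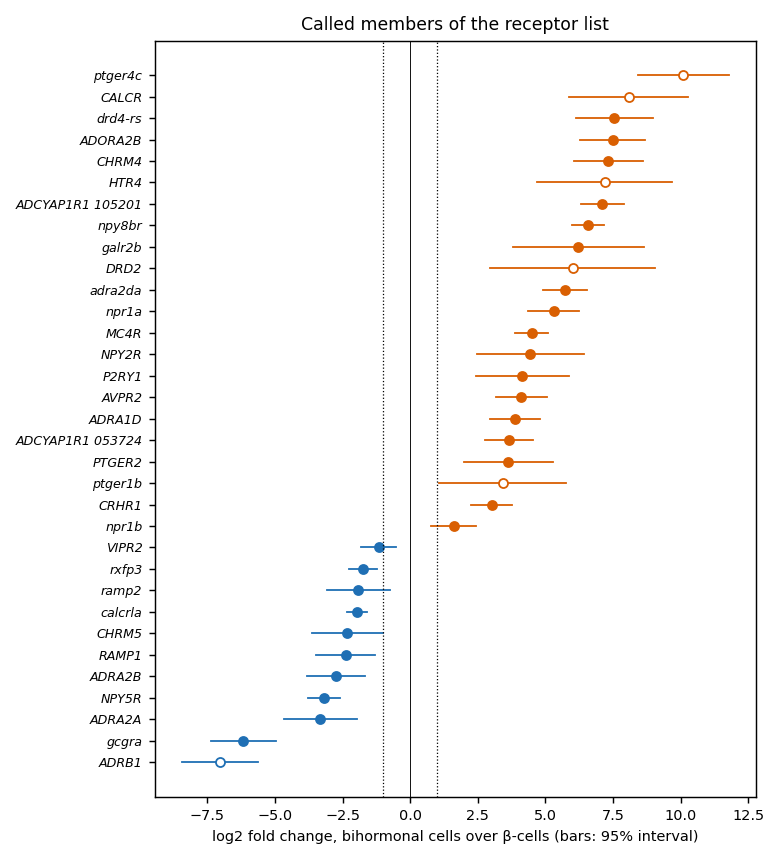
Log2 fold change (bihormonal cells over β-cells, x axis) with its 95% interval from the edgeR model for the 33 called genes of the receptor list, of 58 tested; points beyond the dotted lines at 1 and -1 exceed a 2-fold rise or fall. Hollow points mark genes with 3 or fewer counts over one group, whose fitted value depends on the prior count; of the filled points *drd4-rs* at 7.55 is the highest and *gcgra* at -6.17 the lowest.

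Downstream of these receptors, 10 of 55 adenylyl cyclases, phosphodiesterases and PKA genes rose and 4 fell (25.5%). *ADCY5* and *ADCY7*, adenylyl cyclases, had 330.5–799 and 209–374 in bihormonal cells and 88.5–292 and 107–186.2 in β-cells, log2 fold changes of 1.58 and 1.13 (adjusted p = 0.000114 and 0.000553). *rapgef3*, a cAMP-activated exchange factor for Rap, fell from 254–631 to 98.2–199.7 (log2 fold change of -1.58, SE 0.25, adjusted p = 7.49e-05). With a level per library run 2 genes of this list were higher and 2 lower, and *ADCY7* was not called (adjusted p = 0.0747). In phosphoinositide and diacylglycerol signalling 8 of 69 rose and 7 fell (21.7%). *pik3r6a*, a regulatory subunit of phosphoinositide 3-kinase gamma, was at 205–642 in β-cells and 0–2.56 in bihormonal cells. It gave 3344 counts over the β-cells against 3, 687 times as high (counting interval 235 to 3330). Its fitted log2 fold change went from -9.17 to -10.18 without bihormonal replicate 4. *DGKA* (ENSDARG00000060626), a diacylglycerol kinase, had 5.77–122 and 1100–1821 (log2 fold change of -4.83, SE 0.57, adjusted p = 2.02e-06), and *PRKCE* (ENSDARG00000069928), a protein kinase C, 328–771 and 55.0–136 (log2 fold change of 2.89, SE 0.23, adjusted p = 7.58e-09). Another gene of the symbol *PRKCE* (ENSDARG00000003008) had 1415–2644 and 1130–2319 and was not called (log2 fold change of 0.16, SE 0.19, adjusted p = 0.656). *ITPR1* (ENSDARG00000074149), the calcium channel opened by inositol trisphosphate, had 584–1379 and 139.5–364 (log2 fold change of 1.83, SE 0.24, adjusted p = 8.50e-06). *camk2d1*, a calcium/calmodulin kinase gene, had 440.5–678 in β-cells and 0–17.5 in bihormonal cells (log2 fold change of -6.53, SE 0.45, adjusted p = 1.37e-09, and -7.51 without bihormonal replicate 6), and *DGKA* was at -5.51 without bihormonal replicate 5. Among G proteins and regulators the signal terminator *rgs16* fell (739.6–1142 against 1774–3252, log2 fold change of -1.60, SE 0.25, adjusted p = 5.59e-05), *rgs3b* rose (315–589.8 against 118–204, log2 fold change of 1.37, SE 0.17, adjusted p = 3.78e-06) and *RGS5* was not called.

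Sodium, chloride and bicarbonate handling rose in 13 of 65 genes and fell in 5 (27.7%). *slc4a3*, an anion exchanger that swaps chloride for bicarbonate, had 359.8–848 in bihormonal cells (median 587) and 3.37–13.3 in β-cells (median 6.07), a log2 fold change of 6.35, SE 0.30, adjusted p = 1.05e-11. *SLC4A2* (ENSDARG00000028173), another exchanger of that family, went from 157–241 down to 37.1–109 (log2 fold change of -1.68, SE 0.24, adjusted p = 2.12e-05). The sodium-bicarbonate cotransporter *slc4a7* was also called higher (247–1126 against 82.2–232). *ca4a*, a membrane carbonic anhydrase, which makes bicarbonate from carbon dioxide, had 5287–14810 and 4.33–153 (log2 fold change of 7.28, SE 0.60, adjusted p = 1.16e-08), with all 6 bihormonal libraries above all β-cells. *SLC9A5*, a sodium/proton exchanger, rose from 1.36–20.4 to 174–579.6 (log2 fold change of 4.62, SE 0.40, adjusted p = 2.79e-08), and *slc8a4a*, a sodium/calcium exchanger, from 0–2.25 to 58.9–496 (log2 fold change of 8.07, SE 0.63, adjusted p = 5.87e-09). The sodium pump subunit *atp1a3a* was at 1764–4047 and 1950–3896 and was not called. *XPR1*, a phosphate exporter, fell from 178–363 to 0–5.84 (log2 fold change of -6.96, SE 0.47, adjusted p = 9.83e-10), with a log2 fold change of -7.92 without bihormonal replicate 6.

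Growth factor genes changed in both directions, 11 of 73 up and 7 down (24.7%, against 13.2% of all tested genes). *klb*, beta-Klotho, the co-receptor for endocrine FGFs, had 863–1925 in bihormonal cells and 64.5–279 in β-cells (log2 fold change of 3.16, SE 0.32, adjusted p = 2.33e-07), and *FGFR1* (ENSDARG00000011027), one of its partner receptors, 314–634 and 41.2–127 (log2 fold change of 2.67, SE 0.25, adjusted p = 9.82e-08). *igf2a*, an insulin-like growth factor, was at 17.9–185 and 0–1.36 (log2 fold change of 6.87, SE 0.79, adjusted p = 1.40e-06, and 6.24 without bihormonal replicate 3). In the TGF-beta and BMP list 7 of 52 rose and 4 fell (21.2%). *FSTL1* (ENSDARG00000039576), a secreted BMP-binding protein, was at 1015–2866 in β-cells and 0–28.4 in bihormonal cells (log2 fold change of -7.81, SE 0.56, adjusted p = 2.11e-09, and -9.25 without bihormonal replicate 6), and the receptor *BMPR1A* (ENSDARG00000019728) at 613–1606 and 147–249 (log2 fold change of -2.63, SE 0.23, adjusted p = 3.73e-08). *LTBP1*, which holds latent TGF-beta in the matrix, rose from 2.60–14.2 to 61.5–169.5 (log2 fold change of 3.75, SE 0.44, adjusted p = 1.70e-06). In the Notch list 4 of 22 rose (18.2%, against 7.39% of all tested genes). The median log2 fold change was -0.03 with 9 of 22 positive, so the list did not rise as a whole. At an unadjusted p under 0.05, 5 members were higher and 4 lower. *dlc*, the Notch ligand deltaC, had 1411–3764 in bihormonal cells (median 2692) and 23.6–209.5 in β-cells (median 39.2), a log2 fold change of 5.07, SE 0.52, adjusted p = 2.79e-07. *HEY2*, a Notch target, *jag1a*, a ligand, and *notch2*, a receptor, were the others, at log2 fold changes of 2.19, 3.65 and 1.04. Without β-cell replicate 7 *jag1a* was at 5.0, and *notch2* was under the fold threshold without bihormonal replicate 5 or β-cell replicate 1, 4 or 7 (log2 fold changes of 0.953 to 0.997).

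In the Wnt list 12 of 48 genes rose and 2 fell (29.2%). *DKK3* (ENSDARG00000070683), a secreted Dickkopf-related protein, had 108800–316700 in bihormonal cells and 2885–12770 in β-cells, with a log2 fold change of 4.54, SE 0.40, adjusted p = 2.87e-08 and no overlap, with 137400–152400 in GFPhigh δ-cells. *KREMEN1*, a receptor of Dickkopf proteins, rose from 14.7–68.9 to 152–574 (log2 fold change of 3.08, SE 0.31, adjusted p = 2.51e-07), and *APC2*, a relative of the beta-catenin scaffold APC, from 44.8–114 to 182–536 (log2 fold change of 2.08, SE 0.28, adjusted p = 1.03e-05). *WNT9A*, a Wnt ligand, fell from 172–318 to 1.83–29.2 (log2 fold change of -4.83, SE 0.50, adjusted p = 3.47e-07, and -6.11 without bihormonal replicate 6). *WIF1*, a secreted Wnt inhibitor, was at 3410–7070 and 3193–4877 and was not called.

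Axon guidance genes were called in 38 of 83 cases, 25 higher and 13 lower. The secreted cues *SLIT1* and *SLIT2* rose together: *SLIT1* (ENSDARG00000044954) had 176–413 against 2.75–13.3 (log2 fold change of 5.47, SE 0.34, adjusted p = 3.16e-10), the second *SLIT1* gene (ENSDARG00000099446) 34.6–2278 (median 172) against 0–1.36 (log2 fold change of 9.79, SE 1.31, adjusted p = 9.00e-06, and 8.26 without bihormonal replicate 2) and *SLIT2* 211–383 against 23.6–75.8 (log2 fold change of 2.70, SE 0.26, adjusted p = 1.02e-07). *SEMA3B*, a secreted semaphorin, had 48.7–369 and 0–6.78 (log2 fold change of 5.60, SE 0.47, adjusted p = 1.59e-08) and *NTNG1* (ENSDARG00000073713), a membrane-anchored netrin, 447–1383 and 15.07–51.5 (log2 fold change of 4.98, SE 0.33, adjusted p = 9.73e-10). For all 5 genes the groups did not overlap. *EFNB2*, an ephrin, was not called at 858–2687 and 1978–2983. The calsyntenin *CLSTN2* (ENSDARG00000060637), an adhesion protein of synapses, was at 140.4–1314 in β-cells and 0–17.8 in bihormonal cells (log2 fold change of -7.22, SE 0.68, adjusted p = 7.97e-08, and -8.62 without bihormonal replicate 5). With the library run in the model, 19 genes were higher and 6 lower in this list.

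Matrix genes rose in 20 of 59 cases and fell in 7, with a median log2 fold change of 0.55 over the list. *MMP9*, a secreted gelatinase, had 248–605 in bihormonal cells (median 406) and 1.90–22.4 in β-cells (median 6.42), a log2 fold change of 5.57, SE 0.41, adjusted p = 2.44e-09. *ncana*, the proteoglycan neurocan, had 25.6–316 and 1.36–8.21 (log2 fold change of 4.74, SE 0.53, adjusted p = 9.77e-07) and *SERPINI1*, neuroserpin, 225–469.9 and 46.1–111 (log2 fold change of 2.31, SE 0.24, adjusted p = 2.53e-07). *mmp11b*, another metalloproteinase, fell from 233–772 to 6.97–58.4 (log2 fold change of -3.99, SE 0.42, adjusted p = 3.95e-07). Mesenchymal markers, which would come with fibroblasts, summed to 8.08 to 122 in bihormonal and 2.44 to 27.7 in β-cell libraries, none of the 7 reached the count minimum for testing, and their part in the matrix genes was not tested. Sugar chains of the cell surface changed too, with 18 of 116 glycan genes higher and 8 lower (22.4%). *B3GNT7*, which extends keratan sulfate chains, had 234–476 and 0.886–8.13 (log2 fold change of 6.68, SE 0.37, adjusted p = 6.47e-11), *XYLT1*, which starts proteoglycan chains, 97.0–295 and 4.49–23.1 (log2 fold change of 3.53, SE 0.34, adjusted p = 1.34e-07), and *sdc2*, the proteoglycan syndecan 2, 1513–3664 and 499.6–885 (log2 fold change of 1.82, SE 0.20, adjusted p = 7.84e-07). *hs3st3b1b*, a heparan sulfotransferase, fell from 2192–3454 to 340.4–1163 (log2 fold change of -1.75, SE 0.22, adjusted p = 5.13e-06). *COLEC12*, a scavenger receptor of the collectin family, had 150.5–438 in bihormonal cells and 0 counts in every β-cell library. Against a floor of 3 counts over the β-cell group its level was at least 804-fold higher, and GFPhigh δ-cells had 46.0–72.6.

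Of 86 actin and keratin genes 9 rose and 9 fell (20.9%), and of 80 genes of microtubules and motors 13 rose and 5 fell (22.5%), against 13.2% of all tested genes. Keratins *krt8*, *krt15* and *krt18a.1* were lower, the last at 276–1044 against 2312–5603 (log2 fold change of -2.42, SE 0.32, adjusted p = 9.00e-06), while *epcam*, an epithelial adhesion protein, was not called at 327–2191 and 919–3782. *KIF26B*, a kinesin, rose from 4.58–36.6 to 39.2–471 (log2 fold change of 3.57, SE 0.46, adjusted p = 5.26e-06), and the microtubule protein *MAP1A* fell from 126–328 to 6.66–31.2 (log2 fold change of -3.28, SE 0.43, adjusted p = 6.89e-06). *SH3D19*, an adaptor protein with SH3 domains, fell from 485–885 to 0–32.6 (log2 fold change of -5.64, SE 0.57, adjusted p = 2.25e-07, and -6.32 without bihormonal replicate 6). *actb2* and *tubb4b*, which encode actin and tubulin, were not called, at 9699–13520 against 6959–14520 and 3242–6404 against 3126–5157.

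Immediate early genes, which cells switch on within minutes of stimulation or stress, fell in 21 of 68 cases and rose in 4 (36.8% called), and the median log2 fold change was -0.40. *FOS* had 12240–31350 in bihormonal cells (median 20200) and 37810–64450 in β-cells (median 53710), a log2 fold change of -1.37, SE 0.22, adjusted p = 8.63e-05. *ier2a* had 1973–4810 and 8897–26590 (log2 fold change of -2.40, SE 0.28, adjusted p = 1.45e-06), *BTG2*, an antiproliferative gene, 3204–9095 and 10330–20270 (log2 fold change of -1.47, SE 0.22, adjusted p = 3.19e-05) and *JUNB* (ENSDARG00000074378) 504–1442 and 2827–6559 (log2 fold change of -1.73, SE 0.27, adjusted p = 5.89e-05). All 6 bihormonal libraries lay below all 7 β-cell libraries for these 4 genes, and for 12 of the 68 in all. *egr1*, *egr4*, *FOSB*, *FOSL1*, *JUN* and *NR4A1* were also lower. Genes of the symbol *NPAS4* were called higher, with some overlap of the groups. ENSDARG00000055752 had 412–1834 against 62.4–504.9 (log2 fold change of 2.32, SE 0.46, adjusted p = 0.000785) and 2778–4629 in GFPhigh δ-cells. ENSDARG00000087753 had 4.44–68.8 against 0–13.3 (log2 fold change of 2.82, SE 0.76, adjusted p = 0.0109). *DUSP4*, a phosphatase that switches off MAP kinases, went up from 4.75–37.9 to 70.0–191.8 (log2 fold change of 2.79, SE 0.34, adjusted p = 2.70e-06), and *GADD45G*, a growth arrest gene, from 541–2986 to 1888–7593 (log2 fold change of 1.87, SE 0.36, adjusted p = 0.000609). In GFPhigh δ-cells *FOS* was at 18710–24210, within the bihormonal range. *egr1* and *egr4* were there at 4148–5386 and 7426–20620, against 1498–8197 and 3217–25840 in β-cells and 1090–5710 and 1407–5743 in bihormonal cells. With a level per library run 11 genes of the list were lower and 2 higher, and *egr1*, *FOSB*, *FOSL1* and *JUN* were not called. The dissociation and sort that precede lysis are the same in the description of all groups, and their part in these genes was not tested.

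Genes of interferon signalling and antigen presentation fell in 10 of 47 cases (21.3%), with a median log2 fold change of -0.61. *mhc2dhb*, a class II histocompatibility gene, was at 2.53–226 in β-cells and 0–1.11 in bihormonal cells, with 2 counts over all bihormonal libraries. The β-cell level was 160 times as high by counts (95% counting interval 44 to 1320, adjusted p = 0.000637), and the fitted log2 fold change went from -7.00 to -6.20 without β-cell replicate 2, the highest. *PSMB8*, an immunoproteasome subunit, had 127–202 and 211–628 (log2 fold change of -1.14, SE 0.26, adjusted p = 0.00309), *psmb13a* 19.3–55.5 and 90.2–196 (log2 fold change of -1.89, SE 0.40, adjusted p = 0.00162) and *stat2* 80.7–177 and 161–466 (log2 fold change of -1.26, SE 0.30, adjusted p = 0.00474). *PSMB8* fell just short of a 2-fold change without β-cell replicate 1 (-0.99), and *psmb13a* was not called with the library run in the model (adjusted p = 0.0741). *b2m*, beta-2-microglobulin, was level at 9231–11700 and 7999–12220, with a log2 fold change of 0.03, SE 0.14, adjusted p = 0.93. Class II genes are marks of immune cells, and blood cell markers summed to 211 to 1277 in bihormonal libraries and 187 to 3262 in β-cell libraries. Of these markers 2 of 9 reached the count minimum and neither was called. *cd74a* was close to a call at a log2 fold change of -2.25 (adjusted p = 0.0506), and *cd74b* was at -0.80 (adjusted p = 0.493). The part of blood cells in *mhc2dhb* was not tested. In the apoptosis list 4 of 39 fell and 1 rose (12.8%, near the 13.2% of all tested genes). Among the lower was *TP53INP1*, a p53 target (114–432 against 564–1586, log2 fold change of -1.58, SE 0.33, adjusted p = 0.00114). *BIRC5*, survivin, rose (6.93–54.4 against 0.632–8.96, log2 fold change of 2.44, SE 0.69, adjusted p = 0.0152). Neither *TP53INP1* nor *BIRC5* was called with the library run in the model (adjusted p = 0.106 and 0.0593). Of 37 heat shock genes 2 rose (5.41%).

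In DNA replication and mitosis 8 of 50 genes rose and 2 fell (20%), with a median log2 fold change of 0.63. Most of the list leaned upward, with 41 of 50 log2 fold changes positive. At an unadjusted p under 0.05, 20 members were higher and 3 lower. *plk1*, a mitotic kinase, had 23.2–102 and 0–8.66 (log2 fold change of 4.49, SE 0.64, adjusted p = 1.92e-05, and 5.12 without β-cell replicate 4). *CDK6* and *CCND2* (ENSDARG00000051748), which drive the first step into the cycle, fell from 28.1–73.6 to 0–4.17 and from 655–1142 to 196–434, log2 fold changes of -4.38 (adjusted p = 5.89e-05) and -1.47 (adjusted p = 6.28e-05). *CTSD*, the lysosomal protease cathepsin D, was at 418–1254 in bihormonal cells and 2378–7169 in β-cells (log2 fold change of -2.48, SE 0.27, adjusted p = 7.65e-07), the lysosomal membrane protein gene *scarb2a* at 10.8–112 and 326–659 (log2 fold change of -3.18, SE 0.40, adjusted p = 4.52e-06) and *TFEB*, a transcription factor of lysosome genes, at 338–558 and 706–1233 (log2 fold change of -1.13, SE 0.15, adjusted p = 1.01e-05). *cd164*, a sialomucin of endosomes and lysosomes, fell from 6582–12760 to 1535–5127 (log2 fold change of -1.91, SE 0.25, adjusted p = 6.91e-06). The groups were separate for each of these 4 genes. With the library run in the model *TFEB* was just under the fold threshold (-0.93).

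Transcription factors outside the classical islet factors gave 16 higher and 11 lower of 139 tested (19.4%). *TOX3* had 251–615 in bihormonal cells (median 418) and 5.62–21.3 in β-cells (median 10.7), a log2 fold change of 5.18, SE 0.29, adjusted p = 7.70e-11. *PBX3*, a homeodomain partner of HOX and MEIS proteins, had 625–1057 and 56.3–129 (log2 fold change of 3.01, SE 0.19, adjusted p = 4.01e-10). *POU2F2*, a POU factor, fell from 232–394 to 2.22–22.0 (log2 fold change of -4.90, SE 0.38, adjusted p = 5.87e-09). *MAF*, a large Maf factor, and *LMO1*, a LIM-only protein, were also lower, from 1254–2400 to 6.41–85.4 (log2 fold change of -5.28, SE 0.55, adjusted p = 3.98e-07) and from 399–1162 to 0–107 (log2 fold change of -4.93, SE 0.62, adjusted p = 3.94e-06). Without bihormonal replicate 6 *LMO1* was at -6.20. *meis1a*, a MEIS factor, was level at 5271–9472 and 5246–8036 with a log2 fold change of 0.05. The related gene *MEIS1* (ENSDARG00000012078) was called higher, at 1664–2792 against 429–1346 without overlap (log2 fold change of 1.55, SE 0.26, adjusted p = 0.000126). Nuclear receptors were called in 15 of 43 cases (34.9%), 7 higher and 8 lower. The orphan receptor *NR6A1* (ENSDARG00000101508) had 179–627 and 0–5.05 (log2 fold change of 7.43, SE 0.50, adjusted p = 9.73e-10, and 8.15 without β-cell replicate 7). *PPARA*, the fatty acid sensor, fell from 53.1–132 to 8.88–23.2 (log2 fold change of -2.56, SE 0.31, adjusted p = 2.75e-06), and *NR1I2*, the xenobiotic sensor PXR, from 193–363 to 17.9–106 (log2 fold change of -2.02, SE 0.32, adjusted p = 8.42e-05).

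In the list of neuronal RNA-binding and splicing proteins 9 of 51 rose and 1 fell (19.6%). Its median log2 fold change was 0.03, and not all members are particular to neurons. *CELF2* had 120.4–316 and 6.74–20.9 (log2 fold change of 4.00, SE 0.30, adjusted p = 2.90e-09), *CELF3* (ENSDARG00000006983) 345–474 and 55.9–133 (log2 fold change of 2.01, SE 0.19, adjusted p = 7.68e-08) and *celf5a* 203–412 and 46.1–96.3 (log2 fold change of 2.11, SE 0.21, adjusted p = 1.61e-07). *RBFOX3* (ENSDARG00000010083), known as the neuronal marker NeuN, was the single member that fell, from 226–520.4 to 1.83–16.6 (log2 fold change of -5.41, SE 0.41, adjusted p = 3.72e-09). Chromatin modifiers were nearly level, with 11 of 146 called (7.53%). The smallest p was that of *BMI1* (ENSDARG00000013076), a Polycomb subunit, which fell from 147–299 to 20.5–121 (log2 fold change of -1.96, SE 0.37, adjusted p = 0.000521).

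Many zebrafish genes exist as pairs left by a genome duplication, and the members of a pair can divide the work between cell types. By name, 1573 pairs had both genes tested, 812 of them as a symbol on a pair of IDs. In 23 pairs one gene was higher and the other lower in bihormonal cells, in 39 both were higher, in 12 both were lower, in 348 a single gene was called and in 1151 neither was. These pairs were counted after the values were seen. Of all tested genes 7.39% were called higher and 5.76% lower, and whether pairs split more often than unrelated genes was not tested. *INSM1*, a zinc finger factor of endocrine cells, fell for ENSDARG00000053301 from 659.5–1204 to 15.6–119 (log2 fold change of -4.54, SE 0.38, adjusted p = 1.65e-08) and rose for ENSDARG00000091756 from 566–1193 to 1057–2836 (log2 fold change of 1.16, SE 0.23, adjusted p = 0.000777), the first at -5.33 without bihormonal replicate 6. *kcnj19a* and *kcnj19b*, inward rectifier potassium channels, had 771–1856 and 13.9–196 in bihormonal cells and 152–391 and 828–1588 in β-cells, log2 fold changes of 2.00 and -3.43. *pleca* and *plecb*, which encode the cytoskeletal linker plectin, moved by 2.66 and -1.27. Estrogen receptor 2 split the same way, with *ESR2* ENSDARG00000016454 at 46.4–117 against 1.12–51.4 (log2 fold change of 2.36, SE 0.49, adjusted p = 0.00129) and ENSDARG00000034181 at 24.8–140.2 against 139.7–334 (log2 fold change of -1.42, SE 0.39, adjusted p = 0.0111). *PDE4B* rose and *pde4bb* fell, at log2 fold changes of 1.24 and -1.60. With the library run in the model, *PDE4B* and the lower *ESR2* gene were not called (adjusted p = 0.126 and 0.317), and without β-cell replicate 6 the higher *ESR2* gene was at 2.99. Reads that match both members equally stay as the deposited counting left them, so the split between the members of a pair rests on their sequence differences.

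**Figure D4:**
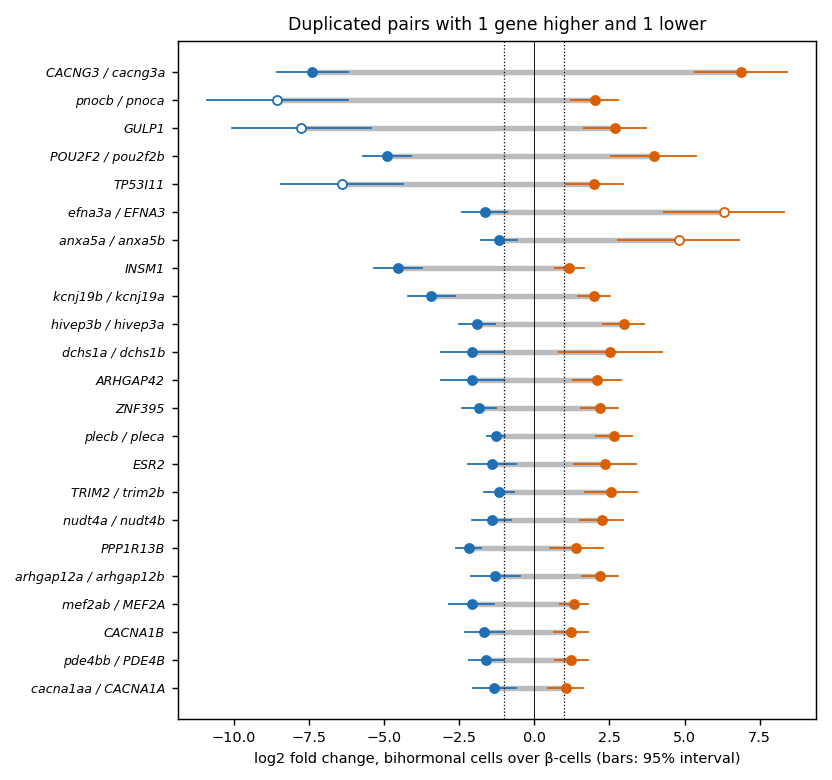
Log2 fold change (bihormonal cells over β-cells, x axis) of both members of the 23 duplicated pairs in which one gene was called higher (orange) and the other lower (blue); horizontal bars are 95% intervals from the edgeR model and a grey line joins the members of a pair. Each pair spans 0, the dotted lines mark 2-fold changes, and hollow points are genes with 3 or fewer counts over one group.

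Some of the largest folds lay outside the lists. *CPNE4*, a copine, which binds membranes in the presence of calcium, had 2844–4448 in bihormonal cells and 5.05–56.7 in β-cells (log2 fold change of 7.79, SE 0.50, adjusted p = 6.10e-10). *epd*, ependymin, a secreted glycoprotein, had 0–9.99 and 48.1–1311 (log2 fold change of -7.22, SE 0.98, adjusted p = 3.55e-05), and *si:dkey-6n21.13*, a gene with no assigned function here, 0–4.17 and 166–378 (log2 fold change of -7.42, SE 0.61, adjusted p = 3.50e-08). All 3 separated the groups without overlap. Single libraries moved *CPNE4* to 8.54 (without β-cell replicate 6), *epd* to -8.35 (without bihormonal replicate 5) or -6.58 (without β-cell replicate 1) and *si:dkey-6n21.13* to -8.31 (without bihormonal replicate 6).

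Many abundant genes differed little between the groups. The 10 with a symbol, an interval within -0.5 and 0.5 and the highest mean counts included *YWHAB* (ENSDARG00000013078), a 14-3-3 protein, at 3729–4828 and 3229–4845. Also among these 10 were *cirbpb*, a cold-inducible RNA-binding protein, at 4313–6989 and 4993–7282, and *RPL21*, a ribosomal protein, at 5678–10610 and 5858–9329. *TMBIM6*, an ER membrane protein that inhibits cell death, was another, at 3142–6693 and 3400–5217. In the order named, the log2 fold changes were 0.03, -0.11, 0.09 and 0.05. The mitochondrial transcripts *MT-CO1* and *MT-CO3* were in this group at 0.08 and 0.06.

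The bihormonal libraries were not uniform. Among genes with a bihormonal mean of at least 500, 8 varied most over the 6 libraries. *RGCC*, a regulator of the cell cycle, was at 4429 in replicate 5 and at 2.32 to 41.0 in the others, *HSD3B7*, a sterol dehydrogenase, at 6025 in replicate 5, and *si:dkey-90l23.1* at 27850 in replicate 3, against medians of 12.4, 150.3 and 423. Without these single libraries *HSD3B7* and *si:dkey-90l23.1* were not called (adjusted p = 0.0562 and 0.154), and *RGCC* fell under the count minimum for testing. *ppdpfa*, named for a factor of pancreatic progenitor differentiation and proliferation, had 4488–43490 in bihormonal cells (median 12960) and 49.5–136 in β-cells (median 76.5), a log2 fold change of 7.79, SE 0.61, adjusted p = 5.87e-09, and 268–1397 in GFPhigh δ-cells. Even the lowest bihormonal library was above the highest β-cell library for *ppdpfa*. *gip* (median 79.0 and 116) and *cfb*, complement factor B (median 574 and 146), varied over both cell types and were not called, except that *gip* was lower without bihormonal replicate 5 (log2 fold change of -3.65, adjusted p = 0.0448) and *cfb* higher without β-cell replicate 1 (3.01, adjusted p = 0.0304).

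**Figure D5:**
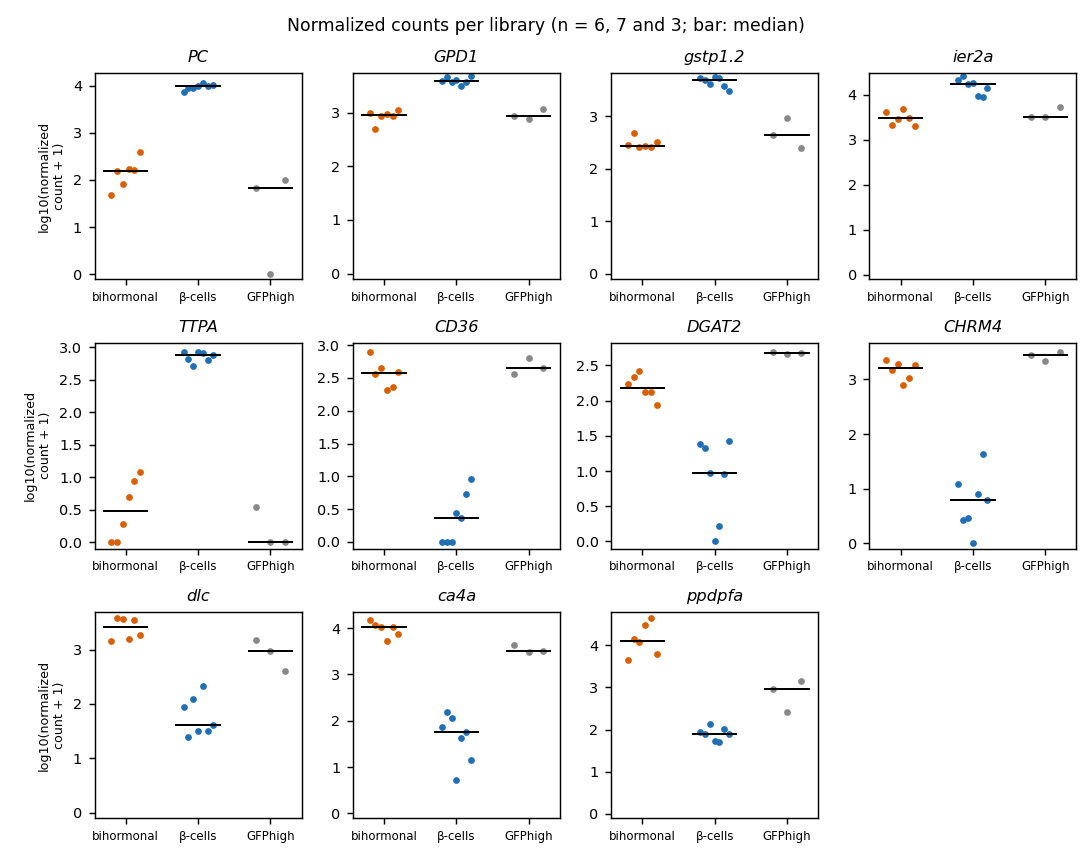
Normalized counts per library (y axis, log10 of the count + 1) of 11 genes in 6 bihormonal libraries (orange), 7 β-cell libraries (blue) and 3 GFPhigh δ-cell libraries (grey); each point is 1 library and the bar is the group median. The bihormonal points of *PC*, *GPD1*, *gstp1.2*, *ier2a* and *TTPA* lie below all β-cell points, and those of *CD36*, *DGAT2*, *CHRM4*, *dlc*, *ca4a* and *ppdpfa* above them.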

How the data were processed

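RNA was sequenced from FACS-sorted cells of zebrafish main islets. Per the labels and the methods of the study, the authors aligned reads to GRCz11 with STAR and deposited raw counts per gene from featureCounts; tool versions are not given in the sources used here. Counts were read as deposited, with 0 further per-sample columns left unused, and sum to between 6028949 and 18077658 in each bihormonal and between 8373496 and 16819976 in each β-cell library. The methods call the libraries of a cell type independent biological replicates, and the labels do not say which fish or sorts they came from.

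Counts were scaled by TMM and tested with edgeR 4.0.16 (quasi-likelihood, R 4.3.3) in 1 model over all 19 libraries and 4 groups, which share 1 estimate of the spread. Genes needed a mean of at least 10 normalized counts. A call needed a Benjamini-Hochberg adjusted p under 0.05 and a fold over 2. Counting intervals are exact conditional binomial at 95% and cover counting error only, as do bounds against a floor of 3 counts per group.

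The compared groups, the 43 gene lists and the named genes were chosen with earlier results of these data known. By rule, the genes named come from the 12 largest folds among called genes in each direction with a mean of at least 200 normalized counts in the higher group, and the 10 largest differences in counts each way, both without overlap of groups and without genes that earlier work on these data names, from each list its most abundant uncalled member and, ranked by p, up to 4 of its called ones, and from the 10 most abundant level genes and the 8 most variable ones. Not all of these genes are described, and 1 is not reported here. Chosen after their values were seen were *CHRM4*, *gcgra*, *npr1a*, *MAF*, *LMO1*, *pnoca*, *GADD45G*, *slc4a7*, *MEIS1*, *NPAS4*, *PRKCE* (ENSDARG00000003008), members of duplicated pairs and the full lists of lower receptors and of called genes in short lists. Symbols in capitals are human symbols that the gene name table assigns to zebrafish genes, and an ID stands where several genes share one. The counting of reads shared by similar genes and of strand is not given in the sources used here.

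Alternatives were DESeq2 1.42.0 as test or for size factors, library totals alone, other filters, a fold threshold inside the model, the 13 libraries alone, blocks for replicate number, library run and table layout, and leaving out each library.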

Additional observations from a re-analysis of the deposited data

Results flagged for a closer look

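Within each group, the highest or lowest library of every gene named in the text was set against the others on the log2(normalized count + 1) scale by the ratio of its gap to the whole range (Dixon's test at the 95% level). *MEIS1*, *NPAS4* and *PRKCE* (ENSDARG00000003008) were left out. Of 403 combinations of a gene and a group, 31 held such a library, 17 in bihormonal cells and 14 in β-cells. Chance marks about 1 in 20 groups of unselected values, or 20.1 here. Some of these genes were named for a wide spread or for separate groups in these same libraries. Genes measured in the same libraries are also not independent, so this rate is only a rough guide. For *ADRB1* in bihormonal cells and *ptger4c* in β-cells the flagged library held the only count of its group. The ratio was then 1 by construction, and this rate does not apply to them.

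A single β-cell library was far above the rest of its group for the normalized counts of *drd4-rs* with 12.4 in replicate 6, *RAB3C* with 2523 in replicate 7, *krt18a.1* with 5603 in replicate 2, *SESN1* with 1760 in replicate 6, *ANGPTL4* with 2957 in replicate 6, *krt8* with 3451 in replicate 2, *DGKA* with 1821 in replicate 2, *JUNB* (ENSDARG00000074378) with 6559 in replicate 4 and *ptger4c* with 1.12 in replicate 1. A single β-cell library was far below the rest of its group for the normalized counts of *FOS* with 37810 in replicate 5, *rgs3b* with 118.2 in replicate 7, *egr1* with 1498 in replicate 6, *CPE* with 8582 in replicate 7 and *scarb2a* with 325.6 in replicate 2. A single bihormonal library was far above the rest of its group for the normalized counts of *CELF3* with 473.7 in replicate 2, *ADRB1* with 1.16 in replicate 1, *plecb* with 355.3 in replicate 2, *SLC25A25* (ENSDARG00000035468) with 58.4 in replicate 6, *RGCC* with 4429 in replicate 5, *NUCB2* (ENSDARG00000036299) with 1103 in replicate 4, *HSD3B7* with 6025 in replicate 5, *egr1* with 5710 in replicate 4 and *INSM1* (ENSDARG00000053301) with 119.4 in replicate 6. A single bihormonal library was far below the rest of its group for the normalized counts of *PSMB8* with 126.6 in replicate 3, *slc25a24* with 53.8 in replicate 4, *NR1I2* with 17.9 in replicate 4, *GPD1* with 499.2 in replicate 2, *SLIT1* (ENSDARG00000044954) with 175.5 in replicate 4, *RAMP1* with 6.42 in replicate 3, *MAP1A* with 6.66 in replicate 5 and *JUNB* (ENSDARG00000074378) with 504.2 in replicate 5.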

How the results depend on the processing

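The count of calls kept within 1.5 times of 1086 higher and 847 lower with DESeq2 as the test (1161 and 888), with DESeq2 size factors (1108 and 827), in the 13 libraries alone (1013 and 881), with a block for the table layout (1088 and 866), and without each library in turn (1012 to 1112 higher, 777 to 871 lower). Without a filter 1393 and 1026 genes were called, and with edgeR's own filter 1229 and 961. On library totals alone 707 genes were higher and 2896 lower, as the median over all genes moved to -0.64. When the fold of 2 was tested inside the model, a stricter question, 638 were higher and 376 lower. With a level per library run, which leaves bihormonal replicates 1 to 3 out of the difference, 535 were lower, 475 of them among the 847, and the higher calls stayed within 1.5 times. Samples that share a replicate number did not deviate together (correlations of -0.24 to 0.07, 0 of 6 numbers over 0.1, and 0 of 6 highest with their own number), so the numbers pair nothing, and a replicate block gave 829 and 775 calls.

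Of 174 called genes named in the text, 128 kept direction and call under every alternative that tested them, 46 lost the call under at least 1 and 0 reversed. The replicate block ended 6 of these calls, and leaving out 1 library ended 7. Of 28 named genes that were not called, 5 were called under at least 1 alternative. *MEIS1*, *NPAS4* and *PRKCE* (ENSDARG00000003008) are not part of these counts. DESeq2 gave no adjusted p for 3 gene values, which were left out. The search for sequence motifs in promoters was not run, since no sequence was used here. With 6 and 7 libraries the median 95% interval of a log2 fold change reached 0.55 on either side, so smaller differences of single genes were often not detectable at this depth.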
